A study of Homo sapiens with 2 samples.

Results

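Lysosome and autophagy genes were compared between A549 cells in monolayer and in spheroid culture. The 44 genes were taken from a list of lysosomal membrane proteins, hydrolases, proton pump subunits, autophagy proteins and the transcription factors tied to them, chosen for their known functions at a time when earlier results of these data were known. For 43 of them the array carried a probe set that names no other gene, as it did for 19775 genes in all. GLB1, which encodes lysosomal beta-galactosidase, shares its only probe set with another gene and was not read. A549 is an established human lung adenocarcinoma line with alveolar epithelial features. The control cells grew attached in DMEM with 10% FBS. The spheroid cells grew detached in DMEM/F12 without serum, to which N2, EGF at 20 ng/ml and bFGF at 10 ng/ml had been added. Both cultures were harvested at day 12 and carried no genetic change, and the cells of each were read on 1 Affymetrix U133 array. Serum, attachment, base medium and growth factors changed together, so their shares in a difference cannot be told apart. With 1 array per culture there is no replicate check and no test between the cultures. RNA was taken from whole cultures, in which fewer cells of a type and less RNA per cell cannot be told apart.

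Lysosomes are acidic organelles in which proteins, glycans and lipids delivered by endocytosis or autophagy are broken down. Their lumen is acidified by the V-ATPase, a proton pump, and their hydrolases reach them mostly through mannose 6-phosphate receptors. In autophagy a double membrane closes around cytoplasm, in steps run by the ULK1 and BECN1 complexes and by conjugation of ATG12 to ATG5 and of LC3 and GABARAP proteins to lipid, and then fuses with the lysosome. TFEB, MITF and TFE3, factors of the MiT/TFE family, bind the CLEAR element in the promoters of many lysosomal genes. mTORC1, a kinase that senses nutrients at the lysosomal surface, holds TFEB in the cytoplasm when nutrients are ample.

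The values are MAS5 signals on a linear scale, and where a pair of signals is given the first is that of monolayer and the second that of spheroid culture. Signals below the median of their array, 108 in monolayer and 119 in spheroid culture, count as at the floor and were raised to it. A gene was read from its brightest probe set, by mean log2 signal, and a difference is given as the log2 ratio of spheroid over monolayer signal. Replicate error cannot be given, and the spread used is that between probe sets. Between the 2 brightest probe sets of each of 5453 genes the log2 ratios differed by an SD of 0.50. For the 20 members among them the SD was 0.31. Both probe sets of a gene are read on the same arrays, so this spread leaves out variation between repeated cultures. The robust SD of the log2 ratio over all 11528 genes above the floor in both cultures was 0.53. Differences of this size are within the spread. A free-text note on the samples speaks of hepatoma cells given a compound, whereas their titles, the stated cell line and the study's methods point to A549. All 6 A549-associated genes read, among them NQO1 and AKR1B10, were far above the floor in both cultures. All 5 epithelial markers were above it as well, with KRT8, KRT18 and CDH1 far above and lower in spheroid culture, EPCAM at only 213 and 302, and KRT19 at 191 in monolayer and 889 in spheroid culture. Of 10 hepatoma markers, 6 were higher in spheroid culture and 3 stayed at the floor. Their signals summed to 1634 in monolayer and to 7459.8 in spheroid culture, most of the latter from ALB with 4639. Their part in the results was not tested.

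Most lysosomal members had higher signals in spheroid culture, and most of the 10 autophagy members did not stand apart from the other genes of the array. All 43 measured members were above the floor in both cultures, so each ratio is measured on both sides. Of these, 34 (79.1%) were higher by any amount, against 52.8% of the 13229 genes with signal over the floor in at least 1 culture. At least 2-fold higher were 13 members (30.2%), against 6.86% of these genes and 6.22% of the genes above the floor in both cultures. At least 2-fold lower was 1 member, CTSH, against a background of 5.5%. At the stricter limit of 3-fold, 1 member, GPNMB, was higher and 0 were lower, where 2.34% of all genes were higher and 2.11% were lower. The median log2 ratio of the 43 members was 0.64, and that of all genes above the floor was 0.04. Dividing each array by its own median moved these medians to 0.50 and -0.10 and left 6 members at least 2-fold higher, against 5.24% of all genes, since the log2 ratios of the other 7 lay between 1.03 and 1.11. With all probe sets of a gene averaged geometrically 9 members (20.9%), all of them among the 13, were past 2-fold, against 4.56% of all genes. LAMP2, TPP1, SMPD1 and ATP6V1A were not. This average also counts probe sets at the floor in both cultures, as in TPP1 and SMPD1. Each of them enters at 0.14, the log2 ratio of the floors, and lowers the mean.

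**Figure D1:**
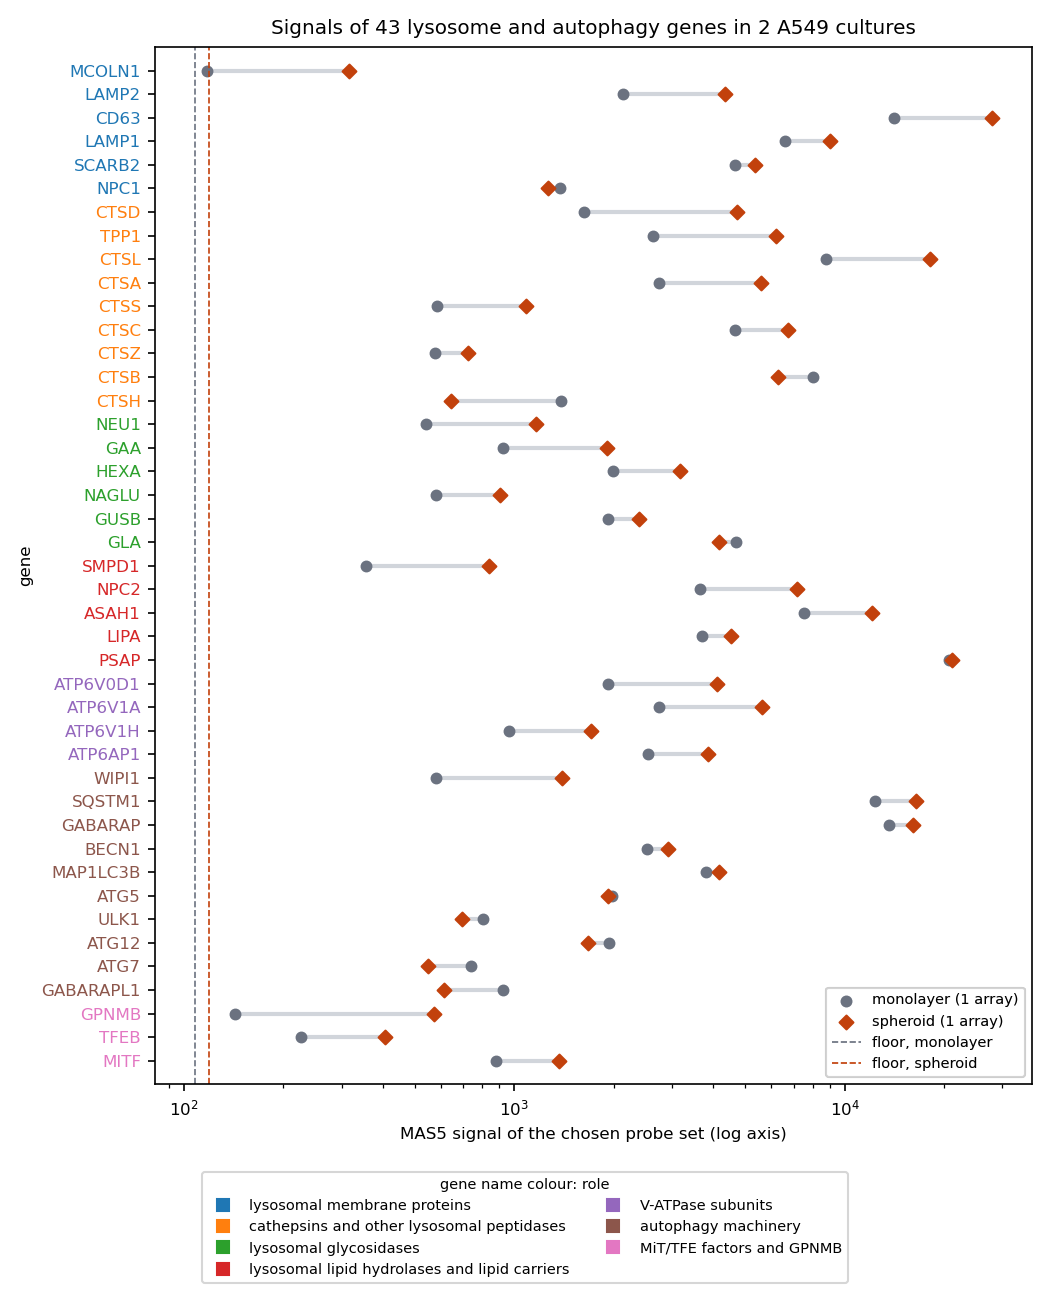
MAS5 signal on a log axis for each of the 43 members in monolayer (grey circles) and spheroid culture (orange diamonds), 1 array each, with gene names coloured by role and dashed lines at the floors of the arrays. The line between the symbols of a gene is its difference, widest for GPNMB and CTSD and reversed for 9 genes, among them CTSH and GABARAPL1.

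The promoters of 8 members hold the E-box CACGTG, which is the core of the CLEAR element. All 8 had higher signals in spheroid culture on their chosen probe sets, as did 34 of all 43 measured members. Of the 33 measured members that are no autophagy genes, 29 (87.9%) were higher. LAMP1 is the weakest of the 8, with -0.03 when its probe sets were averaged geometrically. The 8 are shown because MiT/TFE factors are known to bind this core. Each line gives the gene and the strand 5′ to 3′ around 1 match, from RefSeq promoters on GRCh38.p14, with 20 bases on each side. Capitals mark the match, as the 10-base CLEAR element in MCOLN1 and GAA, as the core of 8 bases, TCACGTGA, in LAMP1, CTSA and ATP6V0D1, and as the E-box alone in CTSD, NEU1 and CD63.
MCOLN1: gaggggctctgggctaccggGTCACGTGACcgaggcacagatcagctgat
GAA: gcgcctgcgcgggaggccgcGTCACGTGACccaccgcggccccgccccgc
LAMP1: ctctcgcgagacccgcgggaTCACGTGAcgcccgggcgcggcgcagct
CTSA: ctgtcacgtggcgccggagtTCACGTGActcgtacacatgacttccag
ATP6V0D1: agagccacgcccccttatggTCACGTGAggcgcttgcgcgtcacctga
CTSD: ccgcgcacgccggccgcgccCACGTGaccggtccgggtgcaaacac
NEU1: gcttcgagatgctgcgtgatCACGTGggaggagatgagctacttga
CD63: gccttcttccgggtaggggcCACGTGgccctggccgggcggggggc

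These windows lie at chr19:7522588-7522637 on the plus strand for MCOLN1, at chr17:80101483-80101532 (plus) for GAA, at chr13:113297190-113297237 (plus) for LAMP1 and at chr20:45891289-45891336 (plus) for CTSA. The others lie on the minus strand, at chr16:67481190-67481237 for ATP6V0D1, chr11:1763949-1763994 for CTSD, chr6:31862922-31862967 for NEU1 and chr12:55729164-55729209 for CD63. The first capital letter stands 16 bases before the annotated start in MCOLN1, 78 in GAA, 29 in LAMP1, 26 in CTSA, 60 in ATP6V0D1, 47 in CTSD, 126 in NEU1 and 180 in CD63. LAMP1 holds 6 E-boxes, of which 2 have the flanking T and A, and MCOLN1, GAA and CTSA hold 2 each. In CD63 the E-box is in 1 of 8 annotated starts.

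The searched window ran from 250 bases before to 50 after each start, and all 3 motifs read the same on both strands, each longer one containing the shorter. RefSeq promoters were given for 35 of the 44 members, and those of LAMP2, CTSB, CTSS, HEXA, NAGLU, ASAH1, PSAP, ATP6V1A and ATP6V1H were not used here. CACGTG is in 22.9% of these 35 members and in 8.77% of 27305 genes with a promoter. TCACGTGA is in 5 members, 14.3%, and in 1.18% of all genes, and the 10-base element is in 5.71% of the members and 0.421% of all genes. These shares use no array values. Since the CLEAR element is known from lysosomal promoters, higher shares follow from the choice of genes and motif. The 8 members with an E-box had a median log2 ratio of 1.08, from 0.46 to 1.54, and 6 of them were at least 2-fold higher. The 26 measured members without one had a median of 0.30, and 5 were at least 2-fold higher, with 18 higher by any amount. All 10 autophagy genes of the list, with a median of 0.04, are among these 26, so the groups also differ in role. Among the other genes of the same systems, described further on, the medians lay close together, at 0.34 for the 33 above the floor with an E-box and 0.27 for the 101 without, and 12.1% and 8.91% were at least 2-fold higher. Over all genes above the floor the ratios hardly differed by motif, with a median of 0.05 for 1320 genes with CACGTG and 0.03 for 9389 without, and of 0.11 for 226 genes with TCACGTGA. A match describes these letters only, and binding was not measured.

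**Figure D2:**
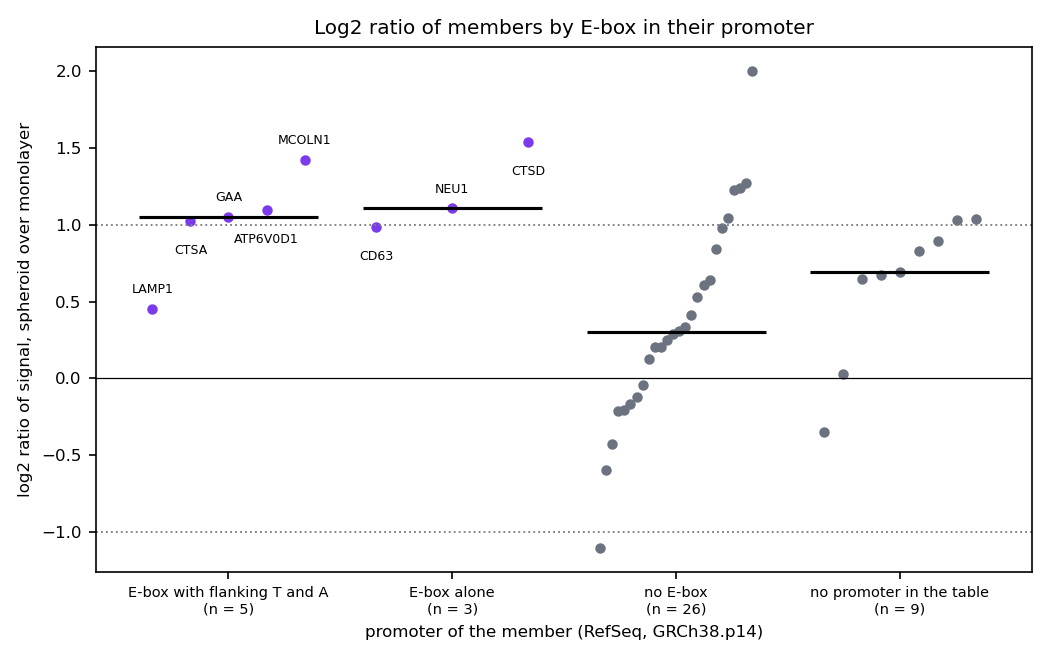
Log2 ratios (spheroid over monolayer) of the 43 measured members, in groups by the E-box in their promoter, each point being 1 gene and each black bar the group's median, with dotted lines at 2-fold. The 8 genes with an E-box (purple, named) all lie above 0 on their chosen probe sets, from LAMP1 at 0.46 (-0.03 with its probe sets averaged geometrically) to CTSD at 1.54, while the 26 without one run from -1.10 to 2.00. All 10 autophagy genes are among the 26.

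Among the lysosomal membrane proteins, MCOLN1, LAMP2 and CD63 were higher in spheroid culture and NPC1 and SCARB2 differed little. MCOLN1, the calcium channel of the lysosomal membrane, had a signal of 118 in monolayer, close to the floor, and 316 in spheroid culture, a log2 ratio of 1.42. LAMP2, an abundant membrane glycoprotein that also takes part in chaperone-mediated autophagy, read 2126 and 4349, 2.05-fold higher. Its 4 probe sets did not go the same way. Of the other 3, 1 read 809.9 in monolayer and 3165 in spheroid culture, another 1677 and 3775, and the third 2819 and 2159. CD63, a tetraspanin of late endosomes and exosomes, read 14091 and 27947, a ratio of 1.98 from a single probe set. LAMP1, the other main membrane glycoprotein, read 6577 and 9018, with a log2 ratio of 0.46 on this probe set and 2 of its 4 probe sets lower. This difference is within the spread between probe sets. SCARB2, the receptor that carries glucocerebrosidase to the lysosome, and NPC1, the cholesterol exporter of the lysosomal membrane, had log2 ratios of 0.20 and -0.12. On 2 other probe sets of NPC1, with monolayer at the floor, the ratios were at least 0.47 and 0.89, and the geometric mean turned NPC1 to 0.34. Of the 6 genes, 2 were at least 2-fold higher and 0 lower, with a median of 0.72. With the floor at the 75th percentile both signals of MCOLN1 were at the floor, so that its ratio could not be measured.

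The peptidases went both ways, with CTSD, TPP1, CTSL and CTSA at least 2-fold higher and CTSH 2.15-fold lower. CTSD, the main aspartic protease of the lysosome, read 1624 and 4726, a ratio of 2.91 from a single probe set. TPP1, a tripeptidyl peptidase, read 2621 and 6194, and the 3 of its probe sets with signal over the floor had log2 ratios of 1.24, 1.42 and 0.74. CTSL, a cysteine endopeptidase, read 8778 and 18082, 2.06-fold higher. CTSA, the protective protein that stabilises beta-galactosidase and neuraminidase, read 2731 and 5567, 2.04-fold higher. Aspartic, cysteine and serine peptidases are all among these 4 genes. CTSC, a dipeptidyl peptidase that activates serine proteases, had a log2 ratio of 0.53 on its chosen probe set and between 0.91 and 1.24 on the other 3. CTSS, a cysteine protease best known from antigen-presenting cells, read 583 and 1085, a log2 ratio of 0.90, and 1 of its 3 probe sets was slightly lower (-0.08). CTSZ, a carboxypeptidase, had a log2 ratio of 0.34. CTSB, a cysteine protease close to CTSL in function, read 8007 in monolayer and 6274 in spheroid culture, with all 5 probe sets lower, from -0.59 to -0.22. CTSH, an aminopeptidase that processes surfactant protein in alveolar type II cells, read 1383 and 643 on its only probe set, whose name ends in _s_at. CTSH was thus the furthest from the other members, with 7 of the 9 peptidases higher and a median log2 ratio of 0.90.

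Of 6 measured glycosidases, 5 were higher in spheroid culture, with NEU1 and GAA past 2-fold. NEU1, the lysosomal sialidase, read 539.7 and 1165, 2.16-fold higher. GAA, which breaks down glycogen in the lysosome, read 921 and 1913, 2.08-fold higher. HEXA, a subunit of beta-hexosaminidase, had a log2 ratio of 0.67, with higher signals on the 3 of its probe sets over the floor, and NAGLU, an enzyme of heparan sulfate breakdown, had 0.65. GUSB, beta-glucuronidase, had 0.31. GLA, alpha-galactosidase, read 4676 and 4158 and was the only glycosidase with a lower signal, by an amount within the spread. The median of the 6 was 0.66.

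All 5 genes of lipid breakdown and lipid transfer had higher signals in spheroid culture, with SMPD1 past 2-fold and PSAP almost level. SMPD1, acid sphingomyelinase, read 356 and 835, 2.34-fold higher, and 2 other probe sets, with monolayer at the floor, had log2 ratios of at least 0.66 and 0.49. NPC2, which hands cholesterol to NPC1, read 3639 and 7185, a ratio of 1.97 from a single probe set. ASAH1, acid ceramidase, read 7512 and 12131, a log2 ratio of 0.69, with 3 of 4 probe sets above the floor higher. LIPA, the acid lipase that frees cholesterol from its esters, had 0.29. PSAP, the precursor of the saposins that help sphingolipid hydrolases, read 20737 and 21160.1, a log2 ratio of 0.03. The median of the 5 was 0.69. When its probe sets were averaged geometrically, with a probe set at the floor in both cultures counted at 0.14, SMPD1 had a log2 ratio of 0.63, under 2-fold.

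The 4 V-ATPase genes were all higher in spheroid culture and lay close together. ATP6V0D1, a subunit of the membrane sector, read 1916 and 4099, 2.14-fold higher. ATP6V1A, the catalytic subunit, read 2743 and 5626, 2.05-fold higher, and its second probe set had a log2 ratio of 0.76. ATP6V1H, a regulatory subunit, read 963 and 1709.7, and ATP6AP1, an accessory subunit, read 2537 and 3867. Their log2 ratios were 0.83 and 0.61, and the median of the 4 was 0.93. The 2 genes past 2-fold were under it with each array divided by its median, at 0.96 for ATP6V0D1 and 0.90 for ATP6V1A.

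The 10 autophagy members did not share this direction, whereas other autophagy genes, described further on, leaned higher. Of 10, 5 were higher and 5 were lower, 1 was at least 2-fold higher, and the median log2 ratio was 0.04, the same to 2 decimals as over all genes. WIPI1, which binds the phosphoinositide made at the forming autophagosome, was the 1 that stood out. It read 577 and 1397, 2.42-fold higher, and its second probe set had a log2 ratio of 1.40. SQSTM1, the p62 cargo receptor, read 12323 and 16385, a log2 ratio of 0.41, with values from 0.01 to 1.17 on its other 4 probe sets. MAP1LC3B, the LC3 protein used to mark autophagosomes, read 3812 and 4159.6, and GABARAP, of the same protein family, read 13570.3 and 16128. Both differences are within the spread, with log2 ratios of 0.13 and 0.25. GABARAPL1, a relative of GABARAP, was lower, with 925 in monolayer and 612 in spheroid culture, a log2 ratio of -0.59. Its second probe set had -0.30, and a probe set shared with its copy GABARAPL3 was not used. ATG7, the activating enzyme of both conjugation systems, had -0.43 and ATG12, a ubiquitin-like modifier, had -0.21, each with 1 of 3 probe sets above the floor higher. ATG5, the partner of ATG12, had -0.04, ULK1, the initiating kinase, had -0.20, and BECN1, of the lipid kinase complex, had 0.21. The other 33 measured members had a median of 0.83, with 29 higher and 12 at least 2-fold higher. RNA levels of these genes do not measure autophagic flux, which was not measured here.

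**Figure D3:**
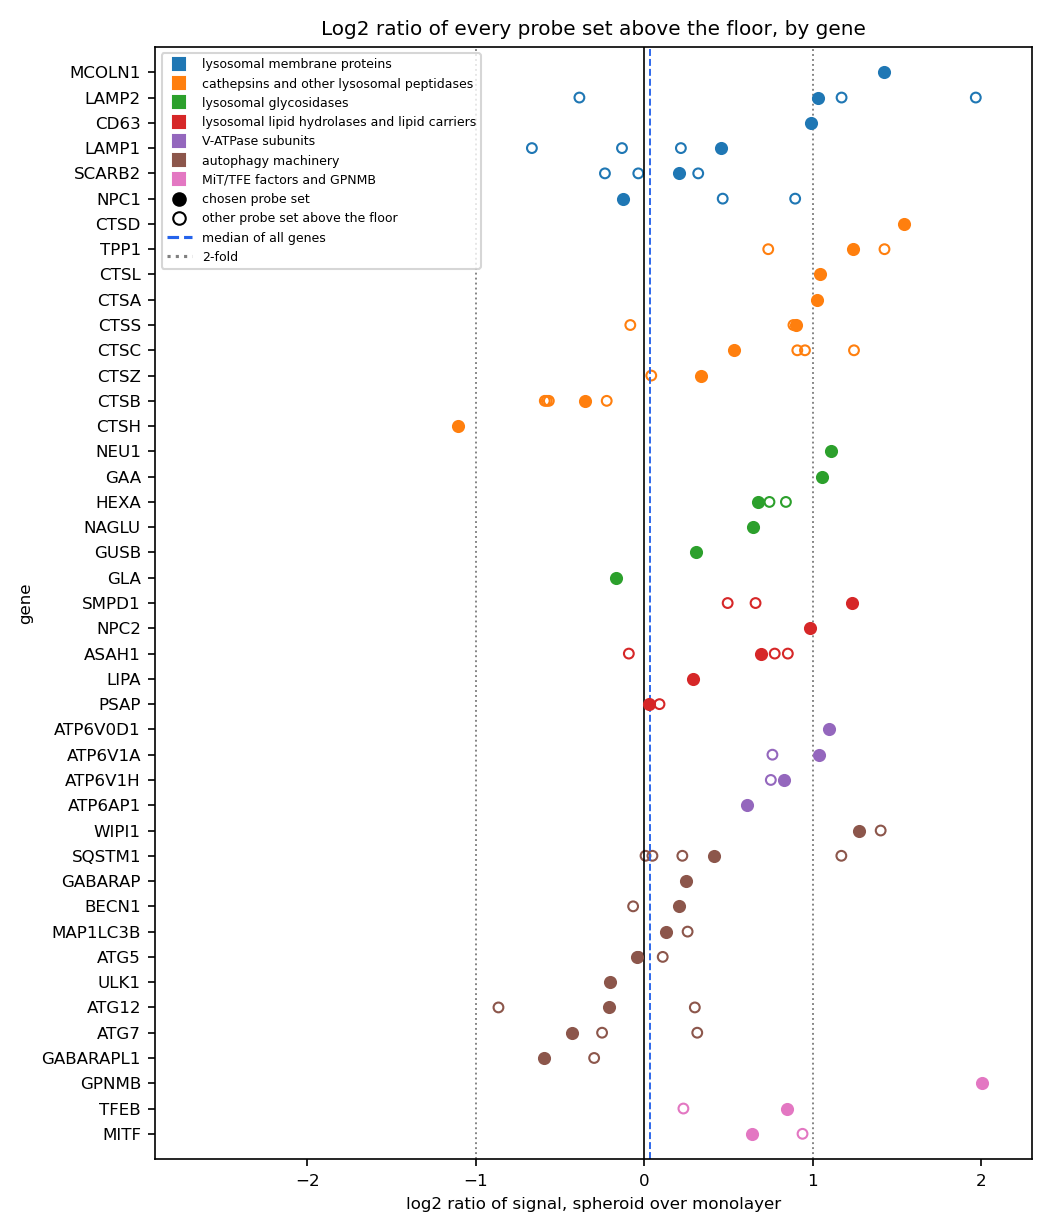
Log2 ratios (spheroid over monolayer) of every probe set above the floor of each member, by role, with filled circles for the chosen probe set, open circles for the others, dotted lines at 2-fold and a dashed line at the median of all genes (0.04). The open circles show how far probe sets of a gene differ, most for LAMP2, from -0.39 to 1.97, and least for genes such as PSAP.

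Of the MiT/TFE factors and their known target GPNMB, the latter was 4.01-fold higher in spheroid culture, and TFEB and MITF were higher by less. GPNMB, a transmembrane glycoprotein of melanosomes and lysosomes, read 142 in monolayer and 570.2 in spheroid culture, a log2 ratio of 2.00, the highest of all members. Its second probe set was at the floor in both cultures. With the floor at the 75th percentile its log2 ratio was 0.26, and with its probe sets averaged geometrically 1.07. TFEB read 226 and 407, a log2 ratio of 0.85, with at least 0.23 on its second probe set, whose monolayer signal was at the floor. With the floor at the 75th percentile both signals of TFEB were at the floor, so that its ratio could not be measured. MITF read 878 and 1368, with log2 ratios of 0.64 and 0.94 on its 2 probe sets above the floor. TFE3, no member of the list, read 4488 and 5658, a log2 ratio of 0.33, with 1 of 3 probe sets lower. Activity of these factors depends on where the protein lies in the cell and was not measured. Since GPNMB, MITF and CTSS are also prominent in melanocytes or macrophages, markers of those cells were read. Of 10 macrophage markers, 7 were at the floor in both cultures, among them CSF1R, CD163 and PTPRC. The other 3 were lower in spheroid culture on their chosen probe sets. These were CD14, with 437 and 111, FCER1G, with 144 and 62.8, and ITGAM, with 198 and 182 and 1 of 2 probe sets higher. The signals of all 10 summed to 1070.3 in monolayer and to 702 in spheroid culture, with most of the fall from CD14. Of 5 melanocyte markers measured, MLANA, PMEL and SOX10 stayed at the floor on every probe set and TYR on its chosen one, while another of its 3 probe sets was above the floor and higher in spheroid culture. TYRP1 was above it in spheroid culture only, with 177. The signals of the chosen probe sets summed to 197 and 409, and whether such cells were present was not tested.

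Other genes of the same systems, 194 in 6 lists, leaned the same way by less. Of 171 with signal over the floor in at least 1 culture, 136 were higher and 35 lower, 16 (9.36%) were at least 2-fold higher and 1 was at least 2-fold lower, and the median log2 ratio was 0.29. The share past 2-fold is close to the 6.86% of all genes, while the share higher by any amount, 79.5%, is near that of the members. After division by each array's median these genes had a median log2 ratio of 0.15, against -0.10 for all genes. Of the 171, 9 were then at least 2-fold higher, where 5.24% of all genes were, so their share past 2-fold was close to the background.

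Among 34 other lysosomal hydrolases above the floor, 27 were higher, 6 by at least 2-fold, and 1 was at least 2-fold lower, with a median log2 ratio of 0.46. CTSO, a cysteine cathepsin, read 133 in monolayer and 399 in spheroid culture, IDUA, an enzyme of heparan and dermatan sulfate breakdown, read 405 and 1082, and SCPEP1, a serine carboxypeptidase, read 831 and 2148. CTSV, a close relative of CTSL, read 1268 and 577, 2.20-fold lower, while CTSL was 2.06-fold higher. Of 24 other membrane proteins and transporters, 19 were higher and 3 were past 2-fold, with a median of 0.49. These were TMEM175, a lysosomal ion channel, with 132 and 315, CTNS, the cystine exporter, with 292 and 629, and PLD3, an exonuclease of the lysosome, with 2439 and 5081. Of 24 sorting and trafficking genes, 19 were higher and 1 was past 2-fold, with a median of 0.20. This was IGF2R, the large mannose 6-phosphate receptor, with 1396 and 3791 and all 3 probe sets higher, while M6PR, the small one, read 1272 and 1280.1. The probe sets of IGF2R differed in size. When _s_at and _x_at probe sets were left out its log2 ratio was at least 0.41, with monolayer at the floor.

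Of 17 other V-ATPase subunits above the floor, 15 were higher, 0 passed 2-fold in either direction and the median log2 ratio was 0.40, below the 0.93 of the 4 V-ATPase members. Of 43 other autophagy genes, 32 (74.4%) were higher, against 52.8% of all genes, and 3 (6.98%) passed 2-fold, against 6.86%. Their median was 0.20, as for the sorting and trafficking genes. The wider autophagy list thus leaned higher, where the 10 autophagy members did not. ATG4A, a protease that trims LC3-type proteins, read 312 in monolayer and 779 in spheroid culture, ATG2B, a lipid transfer protein, read 501 and 1162, and VAMP8, a SNARE of autophagosome fusion, read 338 and 685. Of 29 TFE and mTORC1 regulators, 24 were higher and 3 passed 2-fold, with a median of 0.34. DEPTOR, an inhibitor of mTOR, read 388 and 1548, 3.99-fold higher, with its second probe set at the floor in both cultures and a log2 ratio of 1.07 when both were averaged geometrically. RRAGD, a Rag GTPase that brings TFE factors and mTORC1 to the lysosome, read 237 and 507 with both probe sets alike, and FNIP2, a partner of folliculin, read 348 and 708. MTOR itself read 304 and 411. Of the 5 lower genes of this list RHEB was the lowest, with 16348 and 8206, a log2 ratio of -0.99 and 4 of 5 probe sets above the floor lower. Several of the wider-list genes past 2-fold did not pass it in an alternative. Raising the floor to the 75th percentile gave log2 ratios of at least 0.09 for RRAGD, 0.57 for FNIP2, 0.71 for ATG4A, 0.52 for VAMP8 and 0.40 for CTNS. Their monolayer signals were then at the floor, so these values are lower bounds. With geometric averaging the values were 0.73 for IDUA, 0.75 for SCPEP1, 0.69 for ATG2B, 0.63 for FNIP2 and 0.79 for CTNS. Except for ATG2B, each of these means counts a probe set at the floor in both cultures, at 0.14. The probe sets above the floor were past 2-fold in CTNS, at 1.11 and 1.12, and in SCPEP1, at 1.37.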

How the data were processed

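RNA of A549 cells grown for 12 days in monolayer or in spheroid culture was read on 1 Affymetrix U133 array each. The authors deposited signal intensities on a linear scale, made with MAS5 and GCOS according to the submitters' processing notes (versions not given in the sources used here). Both arrays had been scaled, to a mean of 500.1 after trimming 2% at each end. Samples were grouped by title.

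Of 54675 probe sets, 41097 carried 1 gene, 1801 several and 11777 none. Only the first kind was used, with symbols updated through the Entrez identifier for 41043. The floor was the median of each array without its 62 control probe sets, and lower signals were raised to it. The probe set brightest by mean log2 signal stood for its gene. Counts used limits of 2-fold and 3-fold and no p-value was computed. Members, lists and limits were chosen with earlier results of these data known. Named are all members past 2-fold, the 5 highest and the 5 lowest, TFEB, MITF, LAMP1, LAMP2, SQSTM1 and MAP1LC3B, up to 3 genes per wider list and direction past 2-fold, and others for context. M6PR, TFE3, MTOR and RHEB were added after their values were seen. The scripts' steps were first tested on simulated data. Python 3.11.15, numpy 2.4.6, pandas 2.3.3 and matplotlib 3.10.9 were used. The number of arrays limits the precision.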

Additional observations from a re-analysis of the deposited data

How the results depend on the processing

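In 7 alternatives the floor was dropped, lowered to the 25th percentile or raised to the 75th, the arrays were quantile normalized or each set to its own median, all probe sets of a gene were averaged geometrically, or _s_at and _x_at probe sets were left out. The geometric average counted each probe set at the floor in both cultures at 0.14, the log2 ratio of the floors. The median of the members stayed above 0 under all 7 alternatives. It was 0.53 with the floor at the 75th percentile, 0.50 after division by each array's median, 0.54 with geometric averaging and 0.74 without _s_at and _x_at probe sets, which left 29 members. Members at least 2-fold higher ran from 6, after division by each array's median, to 15 with quantile normalization. The 1 member past 3-fold became 0 with the floor at the 75th percentile, where its monolayer signal was at the floor, and with the geometric mean. The 1 at least 2-fold lower became 0 without _s_at and _x_at probe sets, where CTSH had none. The wider lists had 9 genes at least 2-fold higher with the higher floor, of 147 above it, where 4.70% of all genes were. They also had 9, of 171, after division by each array's median and with geometric averaging, where 5.24% and 4.56% of all genes were. They had 2 at least 2-fold lower with no floor, with the lower floor and after division by each array's median, which also gave their median log2 ratio of 0.15. Of 285 values of single members, 281 moved by less than the spread between probe sets. Many of them could not move further. Dropping or lowering the floor changed no member, and division by the array's median shifted every gene by the same amount, smaller than that spread. The count is therefore no measure of how stable the values are. Signs turned for PSAP and MAP1LC3B after that division, for LAMP1, NPC1 and ATG5 with geometric averaging, and for ATG7 without _s_at and _x_at probe sets, all of them under 2-fold. No paired analysis was possible because each culture has 1 array.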
